A study of Sus scrofa with 36 samples.

Results

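The genes described here are the pig genes for the secreted Wnt ligands, their Frizzled receptors and the secreted Frizzled-related proteins (SFRPs). They were chosen by symbol alone, as every identifier made of WNT, FZD or SFRP with its number and, for some ligands, a letter A or B. This gave 33 of the 20683 genes of the table, namely 19 Wnt ligands, 10 Frizzled receptors and 4 SFRPs. Wnt ligands are lipid-carrying secreted proteins that bind Frizzled receptors in the membrane of a neighbouring cell. With LRP5 or LRP6 as co-receptor they stabilise beta-catenin, which then acts with TCF and LEF factors on target genes, whereas ligands such as WNT5A and WNT11 are best known for signalling without beta-catenin. SFRPs carry a Frizzled-like cysteine-rich domain and bind Wnt ligands outside the cell, and Wnt signalling drives primitive streak and presomitic mesoderm formation in the vertebrate embryo.

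Bulk RNA-seq was measured in 36 libraries of 11 groups of pig cells, with levels given as TPM, a transcript abundance corrected for gene length and depth, and tests made on estimated counts. The first 4 groups were pig fibroblasts (n = 4) and undifferentiated lines of induced pluripotent stem cells (iPSCs): clone 1 (PiPS-EP1 minusPD c4 p11, n = 3), clone 2 (PiPS-EP5 minusPD minusA83 c12 p10, n = 4) and clone 3 (PiPS-EP5 minusPD minusA83 c18 p15, n = 4). The other 7 groups, with 3 libraries each, came from a single further line, clone 8. Its undifferentiated cells were taken on day 0 after removal of the MEF feeder. The mesodermal series followed at day 1 as primitive streak/mesendoderm in E8A100ch3, at day 2 as presomitic mesoderm (PSM) in S1LDN medium and at day 3 as somite in S2LDN medium. Endothelial cells at day 6, beating cardiomyocytes at day 9 and neural progenitors (the labels' neuro progenitor cells) at day 24 completed the set. The labels do not say whether the replicates were separate cultures, so p-values measure the spread between these libraries, which may be technical. The title calls the pig iPSCs transgene-free, and each iPSC line is 1 clone, so a difference between lines is a difference between clones.

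The libraries held 1845333 to 69879325 estimated counts in total, with at least 24314241 in clones 1 to 3 and at most 9727315 in clone 8. The library labelled cardiomyocyte replicate 2 held 4.28 TPM of TNNT2, a troponin of heart muscle, and 254 TPM of PAX6, a neural transcription factor. The library labelled neural progenitor replicate 1 held 5155 and 0.19 TPM of these genes. Across 13821 genes cardiomyocyte replicate 2 had a Spearman correlation of 0.97 to 0.98 with neural progenitor replicates 2 and 3 and of 0.70 to 0.71 with the other cardiomyocyte libraries. Both libraries therefore go against their labels. They were kept as labelled, and the results of these groups are given with and without both. In the day 3 libraries the 5 somite markers summed to 24.4 to 32.5 TPM, against 17.8 to 20.7 at day 2. At day 3 MEOX1 averaged 2.22 TPM, PAX3 0.85 and PAX1 0.27, and TCF15 and FOXC2 made up the rest. The 4 smooth muscle markers summed to 4521 to 5435 TPM at day 3, against 53.95 to 60.02 at day 2. The day 6 libraries held 537 to 601 TPM of 5 endothelial markers and still 573 to 734 of 5 pluripotency markers. The part of these other markers in any result was not tested, and in bulk samples fewer cells of a type and less RNA per cell cannot be told apart.

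Of the 33 genes, 30 averaged at least 1 TPM in some group and 20 at least 10 TPM, among them 7 ligands, 9 Frizzled receptors and all 4 SFRPs. Only 10 averaged at least 1 TPM in all 11 groups, the ligands WNT5B and WNT9A, the receptors FZD1, FZD2, FZD3, FZD4, FZD6 and FZD7, and SFRP1 and SFRP2. The ligands WNT2 and WNT10A and the receptor FZD9 stayed below 1 TPM on average everywhere. WNT2 was at 1.51, 0.14 and 1.31 TPM in the cardiomyocyte group, of which the 0.14 is the doubted replicate 2, and averaged 1.41 there without it. FZD2 had group means from 17.5 TPM in the cardiomyocyte group to 41.2 at day 1, and the former was 9.65 without replicate 2, which held 33.1. SFRP4 was the least even, with 920 ± 187 TPM (SD, n = 4) in fibroblasts and no other group above 1.97 TPM.

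**Figure D1:**
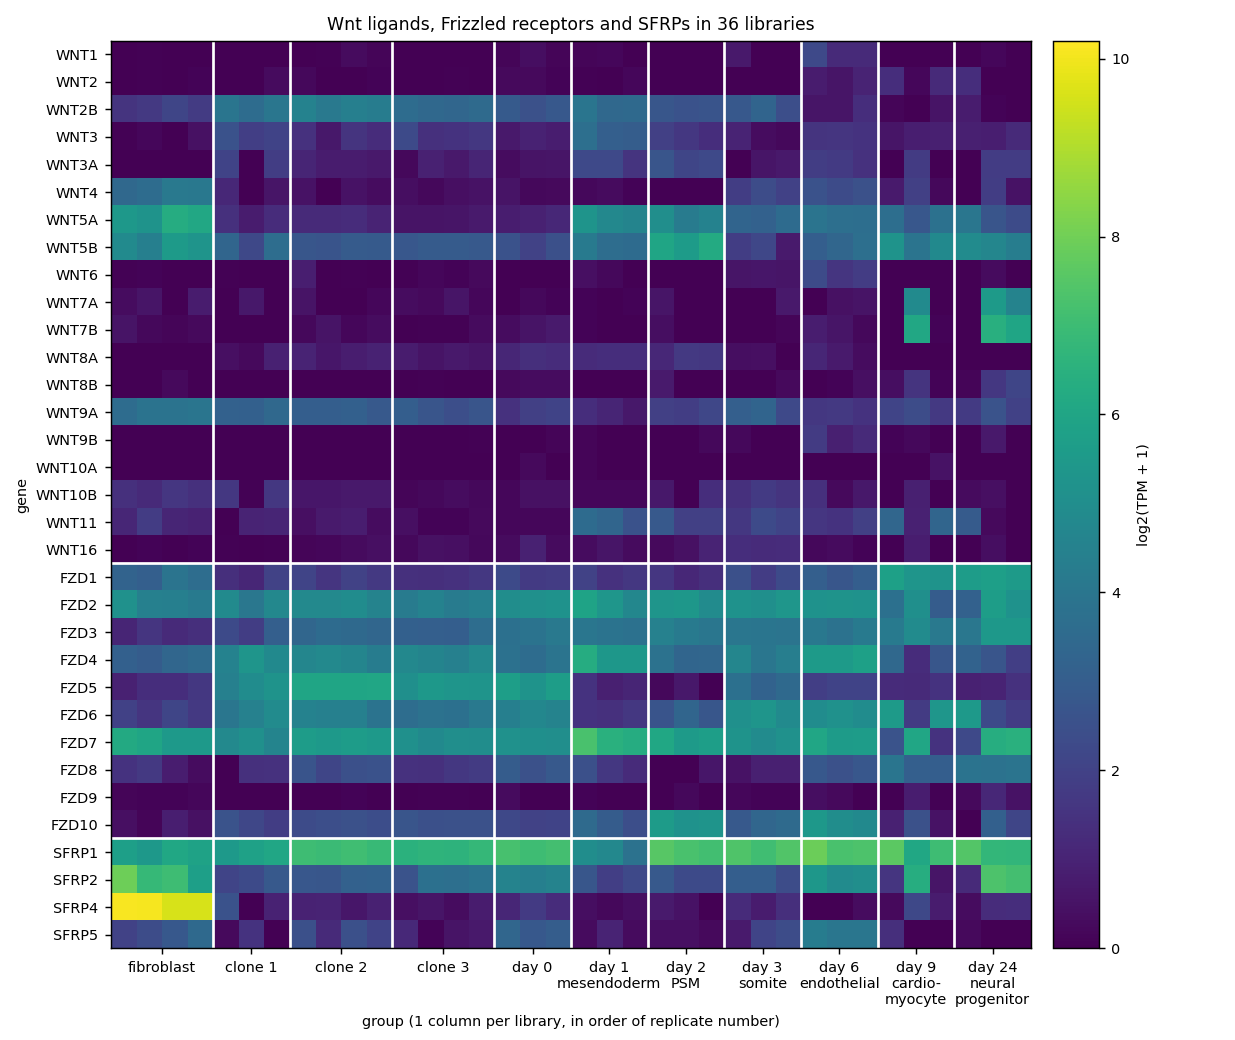
Level of each of the 33 genes (vertical axis) in each of the 36 libraries (horizontal axis, grouped), as log2(TPM + 1) on the colour scale. SFRP4 is bright in the 4 fibroblast libraries, FZD5 in the undifferentiated lines, and WNT7A and WNT7B in cardiomyocyte replicate 2 and neural progenitor replicates 2 and 3.

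The summed level of each family shows which member carried it. Fibroblasts held 122 ± 35.1 TPM of Wnt ligands (SD, n = 4), of which WNT5A made up 46.0% and WNT5B 27.0%. The undifferentiated lines held between 17.6 and 48.7 TPM of ligands per library, and WNT2B was their most abundant ligand in all 4 lines. Ligands summed to 18.4 ± 1.21 TPM at day 0, 77.7 ± 20.98 at day 1, 107 ± 20.7 at day 2 and 36.3 ± 5.63 at day 3 (SD, n = 3 each). SFRPs went the other way at day 1, from 171 ± 11.2 to 28.48 ± 10.1 TPM, and were back at 164 ± 28.3 at day 2. Frizzled receptors summed to 175 ± 9.39 TPM at day 0, 231 ± 85.0 at day 1, 168 ± 23.1 at day 2 and 162 ± 9.80 at day 3, a total that moved less than the receptors that made it up. FZD5 led at day 0 with 26.5% of the Frizzled total, FZD7 at day 1 with 46.2% and at day 2 with 32.6%, and FZD2 at day 3 with 22.4%.

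**Figure D2:**
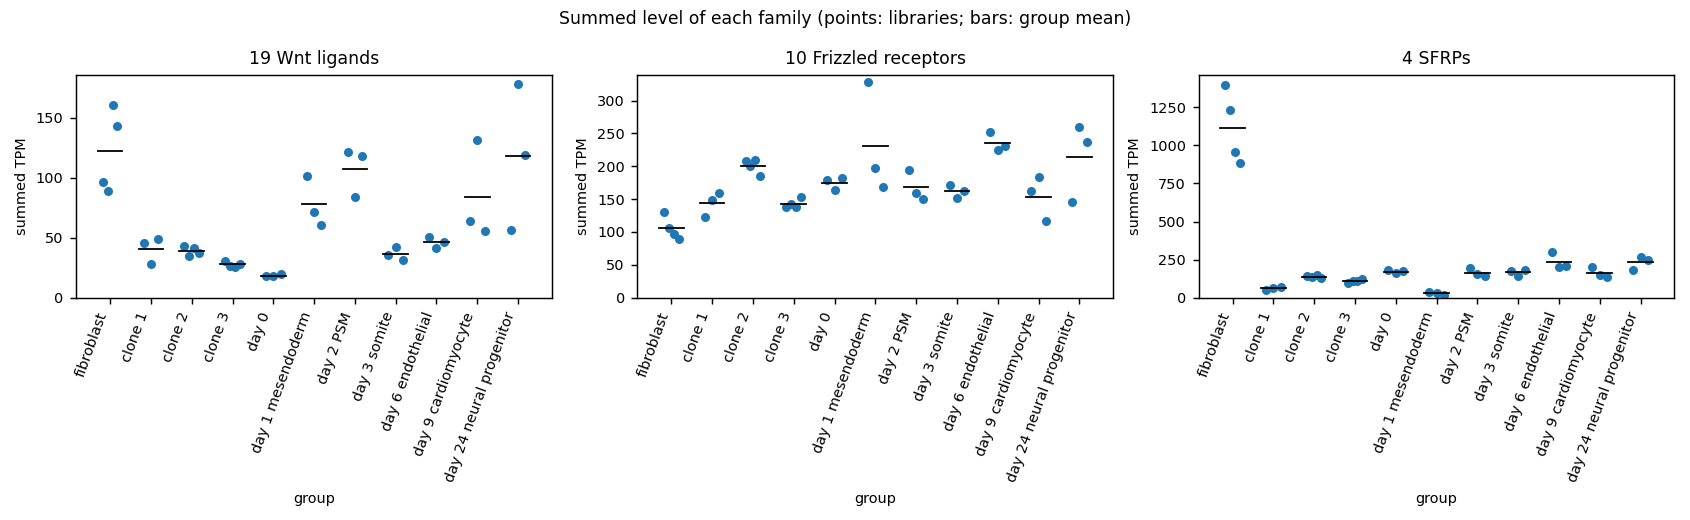
Summed TPM of the 19 Wnt ligands, the 10 Frizzled receptors and the 4 SFRPs in each library (points) with the group mean (bars), for the 11 groups in order. The SFRP sum is 882.7 TPM or more in every fibroblast library and at most 37.6 in every day 1 library.

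Undifferentiated clones 1 to 3, weighted equally, were compared with fibroblasts. WNT5A, SFRP4 and SFRP2 were lower and the receptors FZD5, FZD6 and FZD4 higher in the clones. Of 26 genes tested, 10 were higher and 12 lower at an adjusted p under 0.05 (84.6%), where 74.6% of all genes tested passed, 38.6% higher and 35.9% lower. The other 7 genes (WNT1, WNT2, WNT6, WNT8B, WNT9B, WNT10A and FZD9) had too few counts to test. The median log2 difference was -0.52 over the 26 and 0.11 over all genes. The 4 smooth muscle markers summed to 42285, 42985, 19552 and 20749 TPM in fibroblast libraries 1 to 4 and to 422 to 917 in the clones, and their part in these differences was not tested.

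Among the ligands, WNT5A was at 41.8, 37.0, 78.3 and 68.1 TPM in the 4 fibroblast libraries. It was at 1.64, 0.73 and 1.45 TPM in clone 1, at 1.3, 1.35, 1.44 and 1 in clone 2 and at 0.45, 0.47, 0.50 and 0.69 in clone 3. The groups did not overlap, and the log2 difference was -5.96 ± 0.17 (SE; adjusted p = 6.48e-15, edgeR quasi-likelihood test). WNT4, a ligand of kidney and gonad development, was at 9.83, 11.2, 16.3 and 15.9 TPM in fibroblasts and at most 1.18 in any clone library (log2 difference -5.32 ± 0.57, adjusted p = 1.86e-07). WNT5B, the close relative of WNT5A, was at 20.1 to 45.5 TPM against 3.63 to 11.6 (-2.37 ± 0.21, adjusted p = 1.59e-08). WNT9A was also lower in the clones, at 4.46 to 9.83 TPM against 11.03 to 14.6 (-1.04 ± 0.14, adjusted p = 4.13e-06). These 4 ligands did not overlap between fibroblasts and clones. How many of all genes did not overlap was not counted in this or any later comparison.

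WNT2B and WNT3 had the opposite direction. WNT2B was at 1.92, 2.19, 3.41 and 2.38 TPM in fibroblasts and at 9.42 to 21.8 TPM in the clone libraries (log2 difference 2.50 ± 0.17, adjusted p = 6.10e-10). WNT3, a ligand that the mouse embryo needs to form a primitive streak, was at 0.05, 0.14, 0.00 and 0.39 TPM in fibroblasts and 0.57 to 4.92 in the clones (4.07 ± 0.61, adjusted p = 1.02e-05). Neither overlapped. WNT3A was at 0 in all 4 fibroblast libraries and averaged above 1 TPM only in clone 1, where replicate 3 was at 0 and the others at 3.17 and 2.62 TPM. Set against a floor of 3 counts over the fibroblast libraries, it was at least 32.9-fold higher in the pooled counts of all clone libraries. The equally weighted edgeR comparison gave an adjusted p of 0.0014. WNT10B and WNT11 were called lower, by -1.92 ± 0.62 (adjusted p = 0.00974) and -2.10 ± 0.75 (adjusted p = 0.0175), but their libraries overlapped. WNT11 rested on fibroblast replicate 2, at 2.53 TPM against 0.98 to 1.12 in the other fibroblast libraries, and without it the difference was -1.51 (adjusted p = 0.135). It was -2.12 (adjusted p = 0.0542) with the replicate number as a block. WNT10B was not called against fibroblast libraries 1 and 2 alone (adjusted p = 0.0559) or 3 and 4 alone (adjusted p = 0.0598), and at 14997377 to 15013928 on chromosome 5 it overlaps WNT1, so reads of this pair may be shared.

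Among the receptors, FZD5 was at 0.94, 1.52, 1.54 and 2.12 TPM in fibroblasts. In clone 1 it was at 20.6, 29.9 and 37.1 TPM, in clone 2 at 63.7, 62.4, 63.4 and 65.2, and in clone 3 at 32.7, 41.9, 38.7 and 37.8. Every clone library was above every fibroblast library (log2 difference 4.69 ± 0.20, adjusted p = 8.69e-13). FZD6 stood at 1.97 to 3.36 TPM in fibroblasts and 11.4 to 29.5 in the clones (2.64 ± 0.22, adjusted p = 8.20e-09). FZD4, best known as the receptor of Norrin in retinal vessels, was at 6.76 to 10.6 against 18.6 to 38.5 TPM (1.47 ± 0.16, adjusted p = 1.4e-07). FZD10 (0.09 to 0.79 against 2.65 to 5.48 TPM, 3.56 ± 0.42) and FZD3 (1.10 to 1.95 against 2.60 to 11.5 TPM, 2.08 ± 0.23) were higher as well, with adjusted p-values of 5.74e-07 and 2.23e-07. These 5 receptors did not overlap between the groups, with the share over all genes not counted, and FZD10 stayed low in level.

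FZD1 was lower in the clones, at 1.16 to 3.24 TPM against 7.57 to 14.3 in fibroblasts (-2.44 ± 0.19, adjusted p = 2.38e-09). FZD7 was at 72.0, 63.2, 45.1 and 43.5 TPM in fibroblasts and overlapped with the clones' 23.4 to 48.5 TPM. Its difference of -0.87 ± 0.16 (adjusted p = 0.000103) was -0.29 (adjusted p = 0.06) against fibroblast libraries 3 and 4 alone. Libraries 3 and 4 had fewer counts (6877298 in the smaller) than libraries 1 and 2. They also differed from these in THY1, at 158 and 191 TPM against 607 and 643, and in the smooth muscle markers given above. The part of depth and of these other differences was not tested. FZD2 was not called, at 16.8 to 34.3 TPM in fibroblasts and 15.3 to 29.8 in the clones (-0.16 ± 0.20, adjusted p = 0.479), and the value changed sign with the libraries used, from -0.43 (adjusted p = 0.0764) against fibroblast libraries 1 and 2 alone to 0.36 (adjusted p = 0.153) against 3 and 4 alone and 0.18 without fibroblast replicate 1. FZD7 and FZD2 held the largest Frizzled shares in fibroblasts, 53.1% and 21.8%.

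Of the SFRPs, SFRP4 had the largest difference and SFRP1 the smallest. SFRP4 was at 1094, 1069, 755 and 761 TPM in the fibroblast libraries and at 4.91 TPM or less in the clones (log2 difference -10.1 ± 0.50, adjusted p = 5.32e-12), and it made up 82.4% of the fibroblasts' SFRP total. Without clone 1 replicate 2, which held the 4.91 TPM, the difference was -10.8. SFRP2 was at 246, 115, 129 and 53.0 TPM in fibroblasts and at 3.28 to 13.8 in the clones (-4.44 ± 0.30, adjusted p = 3.62e-10). Against fibroblast libraries 3 and 4 alone it was -3.64, and in either case the groups did not overlap. SFRP1, the main SFRP of every iPSC line, was at 42.6 to 66.7 TPM in fibroblasts, 43.7 to 65.2 in clone 1, 116 to 135 in clone 2 and 90.1 to 109 in clone 3 (0.56 ± 0.11, adjusted p = 0.000135), so clone 1 overlapped with fibroblasts and clones 2 and 3 lay above them. SFRP5 was at 2.99 to 10.3 TPM against 0 to 4.59 (-2.41 ± 0.72, adjusted p = 0.00611). It was -3.29 without clone 1 replicate 3, at 1.85 TPM the highest of that clone, and -1.78 (adjusted p = 0.104) against fibroblast libraries 1 and 2 alone.

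**Figure D3:**
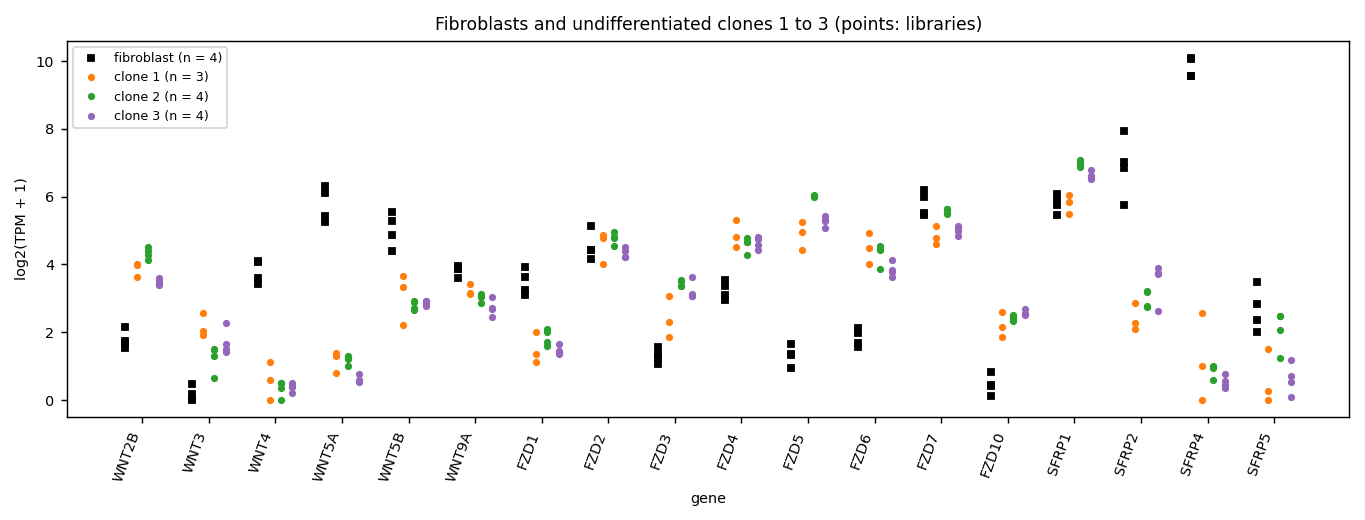
Level of 18 genes as log2(TPM + 1) in each fibroblast library (black squares) and each library of clones 1, 2 and 3 (coloured circles). SFRP4 and WNT5A lie far higher in the fibroblasts, FZD5 and FZD6 far higher in the clones, and FZD2 at similar levels in both.

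The 3 undifferentiated clones were also compared with each other. Between clones 1 and 2, 4 of 26 genes were called (15.4%), all lower in clone 1, against 9.31% of all genes (4.47% higher and 4.84% lower), and limma on TPM called 7. SFRP1 was 43.7, 56.5 and 65.2 TPM in clone 1 and 130, 124, 135 and 116 in clone 2 (log2 difference -1.02 ± 0.14, adjusted p = 0.0003). FZD5 differed in the same direction (-0.96 ± 0.19, adjusted p = 0.00665). FZD3 was at 3.91, 2.60 and 7.42 TPM in clone 1 against 9.26 to 10.7 in clone 2 (-1.02 ± 0.26, adjusted p = 0.0218), a call lost without clone 1 replicate 2 or 3 or clone 2 replicate 3 (highest adjusted p = 0.0855). The remaining gene, WNT7B, was below 1 TPM in both clones.

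Clone 1 and clone 3 differed in 2 of the 26 genes (7.69%), against 6.7% of all genes (3.12% higher and 3.58% lower), where DESeq2 called 8 and a fit of these groups alone called 1. Clone 2 and clone 3 differed in 2, both higher in clone 2 (7.69%), against 4.22% (2.06% higher and 2.16% lower), where a fit of these groups alone called 7. SFRP1 was lower in clone 1 than in clone 3 (-0.84 ± 0.14, adjusted p = 0.00166). WNT5A was higher than in clone 3 both in clone 1 (1.16 ± 0.25, adjusted p = 0.0114) and in clone 2 (1.04 ± 0.23, adjusted p = 0.0134), at 1.64 TPM or less throughout. The first of these was lost without clone 1 replicate 2 (0.91, adjusted p = 0.0586) or with only the groups compared in the fit (adjusted p = 0.171), and the second without clone 2 replicate 3 or clone 3 replicate 1 (highest adjusted p = 0.0552). WNT2B was at 16.6 to 21.8 TPM in clone 2 and 9.42 to 11.06 in clone 3 (0.73 ± 0.17, adjusted p = 0.02), and leaving out clone 2 replicate 1 or 3 or clone 3 replicate 2, 3 or 4 raised its adjusted p to as much as 0.0886. FZD5, at 62.4 to 65.2 TPM in clone 2 and 32.7 to 41.9 in clone 3, was not called in the main fit. It was called by DESeq2 (0.56, adjusted p = 0.0339), limma on log2(TPM + 1) (0.74, adjusted p = 0.0183) and a fit of these groups alone (0.57, adjusted p = 0.0018).

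Entry into mesendoderm was followed in clone 8 by comparing day 1 with day 0. The ligands WNT5A, WNT11, WNT3 and WNT3A rose, the receptors FZD7 and FZD4 rose while FZD5 and FZD6 fell, and the 3 SFRPs tested fell. Of 27 genes tested, 10 were higher and 6 lower (59.3%), against 40.1% of all genes (20% higher and 20.1% lower), and the medians were 0.03 and 0.01. WNT7A, WNT7B, WNT8B, WNT10A, FZD9 and SFRP4 had too few counts to test in the mesodermal and endothelial comparisons. Primitive streak markers summed to 704 to 1192 TPM at day 1 and 26.3 to 35.7 at day 0. The 3 endoderm markers went from 19.3 to 38.5 TPM at day 0 to 119 to 225 at day 1, and the 5 endothelial markers from 3.71 to 7.08 to 94.3 to 162, and their part in these results was not tested.

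WNT5A went from 0.77, 0.90 and 1.17 TPM at day 0 to 38.0, 26.0 and 23.3 at day 1 (log2 difference 5.12 ± 0.22, adjusted p = 1.76e-12). WNT11, a ligand of cell movement in gastrulation, went from 0.13 TPM in each library to 10.9, 8.91 and 4.99 (6.02 ± 0.55, adjusted p = 4.47e-08). WNT3 went from 0.60, 0.99 and 0.75 to 12.3, 7.55 and 6.94 TPM (3.71 ± 0.35, adjusted p = 7.55e-08). In all 3 ligands the lowest day 1 library was several times the highest day 0 library, and day 1 replicate 1 was the highest.

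WNT3A, which maintains the paraxial mesoderm progenitors of the mouse, was at 0.28, 0.47 and 0.48 TPM and then 3.73, 3.73 and 1.89 (3.11 ± 0.52, adjusted p = 9.04e-05). WNT5B rose from 3.05 to 5 TPM to 10.8 to 17 (1.85 ± 0.30, adjusted p = 7.59e-05), and WNT2B from 4.74 to 6.49 to 9.76 to 14.8 (1.25 ± 0.29, adjusted p = 0.00195). None of these overlapped. WNT9A was the 1 ligand that fell, from 1.73, 2.81 and 3.09 to 1.53, 1.09 and 0.56 TPM (-1.06 ± 0.38, adjusted p = 0.0332), and its call was lost without day 0 replicate 2 or 3 or day 1 replicate 2 or 3 (highest adjusted p = 0.142).

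FZD5 fell most among the receptors, from 52.2, 36.7 and 50.0 TPM to 1.78, 0.84 and 1.10 (-4.99 ± 0.32, adjusted p = 3.46e-10). FZD6 fell from 20.1, 25.6 and 22.6 to 1.84, 1.67 and 2.11 TPM (-3.35 ± 0.26, adjusted p = 5.14e-09). The receptors that made up the day 1 total moved the other way. FZD7 rose from 34.9, 32.8 and 31.5 to 154, 88.6 and 77.8 TPM (1.89 ± 0.16, adjusted p = 1.60e-08), and FZD4 from 12.8, 11.2 and 14.4 to 78.2, 41.6 and 41.2 (2.27 ± 0.19, adjusted p = 1.49e-08). FZD10 rose from 3.05 to 3.66 TPM to 4.40 to 10.4 (1.34 ± 0.25, adjusted p = 0.000341). FZD2 overlapped, at 31.4 to 35.3 TPM and 25.1 to 58.8 (0.49 ± 0.19, adjusted p = 0.0436), and it was not called when any of day 0 replicates 1, 2 and 3 or day 1 replicates 1 and 2 was left out (highest adjusted p = 0.244). FZD3 was not called, at 12.51 to 16.5 and 12.9 to 15.2 TPM (0.03 ± 0.13, adjusted p = 0.864).

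SFRP1 fell from 149, 131 and 141 TPM to 31.4, 26.3 and 13.3 (-2.36 ± 0.19, adjusted p = 9.52e-09). SFRP2 fell from 22.7, 20.03 and 22.6 to 5.69, 2.74 and 3.72 TPM (-2.20 ± 0.25, adjusted p = 7.59e-07). SFRP5 fell from 9.26, 6.08 and 7.02 to 0.23, 1.01 and 0.22 TPM (-3.68 ± 0.60, adjusted p = 7.36e-05), or by 4.68 on the log2 scale without day 1 replicate 2. No SFRP overlapped between the days. A fit that also held the cardiomyocyte and neural progenitor libraries called 9 of the 16 genes, and WNT2B, WNT3A, WNT9A, FZD2, FZD7, FZD10 and SFRP2 then had adjusted p-values of 0.077 (WNT9A) to 0.485 (FZD2).

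**Figure D4:**
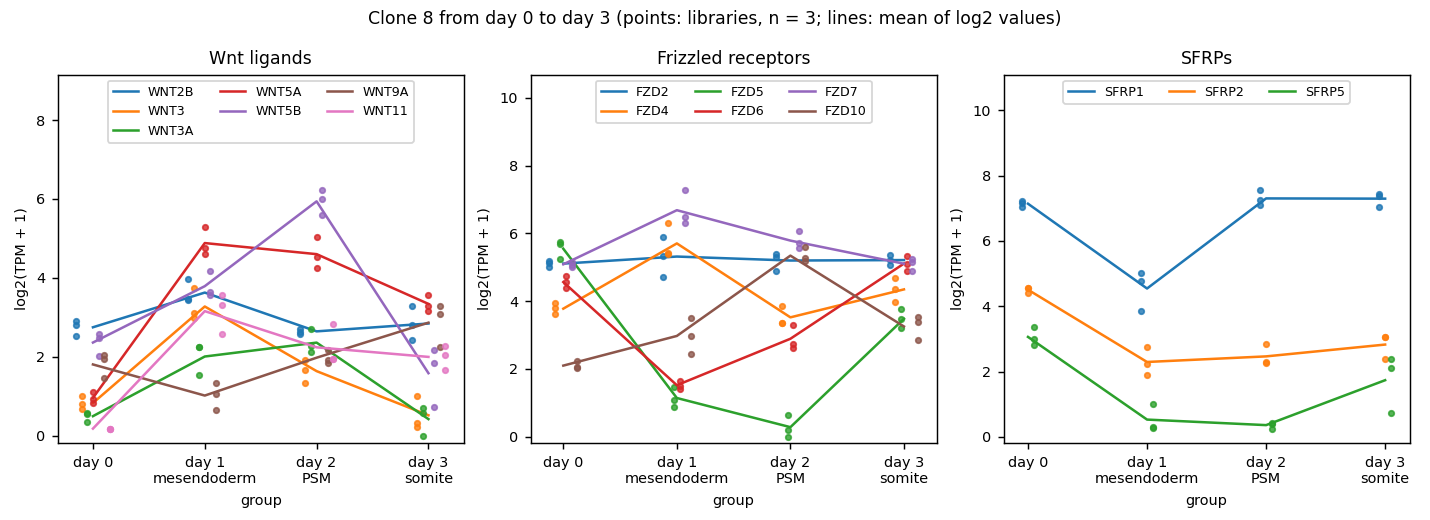
Levels of 7 Wnt ligands, 6 Frizzled receptors and 3 SFRPs as log2(TPM + 1) in the libraries of clone 8 at days 0, 1, 2 and 3 (points, n = 3; lines join means of the log2 values). FZD5 and FZD6 drop at day 1 and are higher again at day 3, SFRP1 is low at day 1 alone, and WNT5B and FZD10 peak at day 2.

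From day 1 to day 2, the step to presomitic mesoderm, the ligand WNT5B and the receptor FZD10 rose to their highest levels, SFRP1 returned, and FZD4, FZD7 and WNT3 fell. Of 27 genes tested, 6 were higher and 8 lower (51.9%), against 26.2% of all genes (12.6% higher and 13.5% lower), and the medians were -0.28 and -0.03. Markers of presomitic mesoderm summed to 168 to 251 TPM at day 2 and 18.2 to 48.5 at day 1.

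WNT5B went from 17, 11.4 and 10.8 TPM to 63.1, 47.1 and 74.0 (2.24 ± 0.28, adjusted p = 3.87e-06) and made up 57.2% of the ligand total at day 2. WNT5A was not called, at 31.7, 17.96 and 22.1 TPM on day 2 (-0.28 ± 0.17, adjusted p = 0.246). WNT3 fell to 2.77, 2.15 and 1.52 TPM (-2.08 ± 0.32, adjusted p = 6.10e-05), and WNT2B to 5.55, 5 and 5.20 (-1.21 ± 0.30, adjusted p = 0.00443). These ligands had no overlap apart from WNT5A. WNT3A was at 5.46, 3.34 and 3.80 TPM and WNT8A, a ligand of the early streak, at 1.17, 2.26 and 2.16, neither of them called. WNT9A rose to 2.78, 2.57 and 3.5 TPM (1.51 ± 0.38, adjusted p = 0.00604). WNT11 was at 6.12, 2.83 and 2.85 TPM and overlapped with day 1 (-1.08 ± 0.36, adjusted p = 0.0319), a call lost without day 1 replicate 1 or 2 or day 2 replicate 2 or 3 (highest adjusted p = 0.124).

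FZD10 went from 10.4, 6.87 and 4.40 TPM to 47.1, 35.2 and 37.5 (2.47 ± 0.23, adjusted p = 9.22e-08), with no overlap. FZD4 fell to 13.5, 9.15 and 9.32 TPM (-2.33 ± 0.20, adjusted p = 2.00e-08), back within the range of FZD4 at day 0 or below it. FZD7 fell to 66.3, 46.3 and 52.0 TPM (-0.95 ± 0.16, adjusted p = 0.000116), still above its day 0 libraries. FZD6 rose to 5.20, 8.90 and 5.65 TPM (1.78 ± 0.28, adjusted p = 7.59e-05). FZD5 fell further, to 0.15, 0.56 and 0.00 TPM (-2.58 ± 0.54, adjusted p = 0.00135), and the difference was -4.34 without day 2 replicate 2 and -1.8 without replicate 3. Its call was lost with only the groups compared in the fit (-2.47, adjusted p = 0.0641). FZD8 went from 4.69, 2.12 and 1.4 TPM to 0.00, 0.00 and 0.55 (-3.38 ± 0.64, adjusted p = 0.00052), and it was still called without replicate 3 (adjusted p = 7.56e-05), when the remaining day 2 libraries were at 0 and the fitted difference is no bound. FZD3 overlapped, at 14.9 to 21.2 TPM (0.40 ± 0.13, adjusted p = 0.0239), and was lost without day 2 replicate 1 or 2 (highest adjusted p = 0.08). FZD2 was not called, at 28.96 to 40.8 TPM (-0.18 ± 0.19, adjusted p = 0.536).

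SFRP1 was at 188, 152 and 136 TPM on day 2, all above the day 1 libraries (2.74 ± 0.20, adjusted p = 2.19e-09). SFRP2 and SFRP5 stayed low, at 3.84 to 6.14 and 0.19 to 0.35 TPM, and were not called. In the fit over all 21 clone 8 libraries 7 genes were called, and WNT2B, WNT11, FZD3, FZD6, FZD7 and FZD10 were not (adjusted p = 0.063 for FZD10 to 0.666 for WNT11).

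Between day 2 and day 3, labelled PSM and somite, the presomitic ligands fell, FZD5 and FZD6 rose and FZD10 fell. Of 27 genes tested, 8 were higher and 8 lower (59.3%), against 51.2% of all genes (26.6% higher and 24.5% lower), and the medians were 0.10 and 0.05. Other markers differed between these days as well. Beside the smooth muscle markers given above, the sums went from day 2 to day 3 from 19.8 to 61.8 TPM to 192 to 203 for 5 cardiac markers, from 26.5 to 44.8 to 223 to 333 for 5 fibroblast markers and from 43.2 to 61.9 to 187 to 264 for 5 neural markers. Their part in these results was not tested.

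WNT5B went from 63.1, 47.1 and 74.0 TPM to 2.60, 3.52 and 0.65 (-5.00 ± 0.35, adjusted p = 5.25e-10). WNT5A fell to 8.78, 7.94 and 10.8 TPM (-1.61 ± 0.18, adjusted p = 4.79e-07). WNT3A fell from 5.46, 3.34 and 3.80 TPM to 0.00, 0.48 and 0.61 (-3.75 ± 0.57, adjusted p = 1.95e-05), and the difference was -3.15 without day 3 replicate 1 and -4.38 without replicate 3. WNT3 fell to 1.01, 0.25 and 0.16 TPM (-2.36 ± 0.43, adjusted p = 0.00015; -3.53 without day 3 replicate 1), and WNT8A to 0.30, 0.32 and 0.00 (-3.41 ± 0.61, adjusted p = 0.000109). In all 5 ligands every day 3 library lay below every day 2 library, and the share of all genes with no overlap was not counted.

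WNT4 was at 0 in the 3 day 2 libraries and at 2.63, 4.23 and 2.96 TPM on day 3. It was at least 32.4-fold higher on day 3, with the floor at 3 counts over the day 2 libraries (adjusted p = 8.71e-07). WNT9A rose to 7.44, 8.70 and 3.71 TPM (0.90 ± 0.34, adjusted p = 0.0328), a call lost without day 2 replicate 1 or 2 or day 3 replicate 1 or 2 (highest adjusted p = 0.202). WNT11 was at 2.18, 3.87 and 3.09 TPM and not called. WNT10B and WNT16 reached their highest group means on day 3, 1.97 and 1.43 TPM, without being called.

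FZD5 went from 0.15, 0.56 and 0.00 TPM to 12.8, 8.16 and 10.1 (5.39 ± 0.44, adjusted p = 6.31e-09), with values of 7.14 and 4.60 without day 2 replicate 2 and replicate 3. FZD6 went from 5.20, 8.90 and 5.65 to 33.6, 39.2 and 28.7 TPM (2.13 ± 0.23, adjusted p = 3.10e-07), above every day 0 library, whereas FZD5 stayed below every day 0 library. FZD10 fell to 6.20, 9.42 and 10.6 TPM (-2.41 ± 0.23, adjusted p = 5.99e-08) and FZD7 to 37.1, 28.9 and 34.9 (-0.93 ± 0.16, adjusted p = 7.07e-05). FZD1 rose from 1.21 to 2.08 TPM to 2.53 to 4.56 (0.94 ± 0.25, adjusted p = 0.00409). FZD4 rose to 24.9, 14.8 and 19.6 TPM (0.67 ± 0.20, adjusted p = 0.00766), but not without day 3 replicate 1 (0.49, adjusted p = 0.0674). FZD3, at 14.2 to 15.2 TPM, overlapped with day 2 (-0.33 ± 0.13, adjusted p = 0.0366), and its adjusted p reached 0.0934 when day 2 replicate 1 or 2 or day 3 replicate 2 or 3 was left out. FZD2 was not called, at 32.7 to 40.0 TPM (-0.22 ± 0.19, adjusted p = 0.358).

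SFRP5 rose from 0.35, 0.32 and 0.19 to 0.67, 3.28 and 4.18 TPM (2.96 ± 0.80, adjusted p = 0.00424). SFRP1 was at 166, 132 and 173 TPM (-0.23 ± 0.18, adjusted p = 0.295) and SFRP2 at 4.19 to 7.31, neither of them called. With all 21 clone 8 libraries in the fit 10 genes were called, and WNT9A, FZD3, FZD4, FZD6, FZD7 and SFRP5 had adjusted p-values of 0.052 (SFRP5) to 0.436 (FZD7).

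Other Wnt pathway genes, among them known targets, were counted over the same steps. The labels name a different medium at days 1, 2 and 3, so effects of the ligands and of the medium cannot be told apart. The 8 genes known as beta-catenin targets and feedback inhibitors were AXIN2, SP5, NKD1, NKD2, APCDD1, T, CDX1 and CDX2. T is also among the primitive streak markers used above. Of these 8, 7 were higher at day 1 than at day 0 by edgeR's quasi-likelihood test, against 20% of all genes. The median log2 difference was 3.36, against 0.01 over all genes. AXIN2, a scaffold of the beta-catenin destruction complex, went from 4, 2.49 and 3.04 TPM to 40.3, 18.9 and 16.5 (3.20, adjusted p = 4.42e-08). NKD1, an intracellular inhibitor, went from 2.63, 1.49 and 2.08 to 63.3, 39.2 and 42.6 TPM (4.80, adjusted p = 2.99e-11). From day 1 to day 2, 2 of the 8 were higher, among them the caudal factor CDX2 (1.90 to 74.1 TPM on average), and 2 lower. Of all genes 12.6% were higher and 13.5% lower at this step. From day 2 to day 3, 7 of 8 were lower, with a median of -3.28, against 24.5% of all genes and a median of 0.05. AXIN2 fell from 42.2, 22.0 and 29.6 to 6.99, 3.14 and 5.13 TPM (-2.86, adjusted p = 1.14e-07) and NKD1 from 68.95, 44.98 and 52.3 to 3.58, 2.01 and 1.27 (-4.82, adjusted p = 2.44e-11).

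Other genes counted as antagonists varied in direction. The list held DKK1, DKK2, DKK3, DKK4, WIF1, FRZB, CER1, SOSTDC1 and the membrane proteins KREMEN1 and KREMEN2. Of these 10 genes 9 could be tested, and 4 were higher and 2 lower at day 1, where 20% of all genes were higher and 20.1% lower. DKK1, which blocks LRP5 and LRP6, was at 12.6, 13.6 and 19.02 TPM on day 0 and at 696, 824 and 952 on day 1, and then fell to 131, 136 and 170 on day 2 and to 1.51, 1.63 and 4.69 on day 3. FRZB, an antagonist of the SFRP family by sequence that is named apart from it, was at 35.0, 42.0 and 37.0 TPM on day 0, 1.26, 2.75 and 2.13 on day 1, 6.63, 7.53 and 7.65 on day 2, and at 35.5, 43.1 and 28.9 on day 3. RSPO3, a secreted amplifier of Wnt signals, averaged 7.44, 201, 121 and 7.01 TPM over days 0 to 3. WLS, which carries Wnt ligands to the cell surface, rose at every step, averaging 34.0, 72.9, 108 and 275 TPM, and so was highest on day 3, when the summed ligand level had fallen.

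The table held 57 other pathway genes, and 54 of them were tested. Over all lists 23 were higher and 11 lower at day 1, 6 and 15 at day 2, and 17 and 16 at day 3, where 40.1%, 26.2% and 51.2% of all genes were called at these steps. The 9 cytoplasmic genes, among them the Dishevelled adaptors, APC, GSK3B and beta-catenin (CTNNB1), gave 2 calls at day 1 and 2 at day 3, all of them higher.

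Some Wnt genes lie next to each other in the genome (RefSeq on Sscrofa11.1). WNT3A (chromosome 2, 51153978 to 51203678) and WNT9A (51102757 to 51128346) are 25631 bases apart. WNT3A rose at day 1 and fell at day 3, while WNT9A was called in the opposite direction at both steps, in calls that depended on single libraries as stated. WNT3 (chromosome 12, 17627291 to 17681197) and WNT9B (17709046 to 17733434) are 27848 bases apart, and WNT9B was at 0.17 TPM or less in every library of days 0 to 2, while both were called higher at day 6. WNT6 and WNT10A on chromosome 15 are 7844 bases apart, and WNT10A, which had too few counts to test, was at 0 in the endothelial libraries in which WNT6 was at 3.97, 1.95 and 2.50 TPM.

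Endothelial differentiation was examined by comparing day 6 with day 0. More genes of the families were higher than lower, with 17 higher and 2 lower of 27 tested (70.4%), against 47.7% of all genes (23.7% higher and 24% lower). The median log2 difference was 1.21 over the 27 and -0.03 over all genes, and WNT2B and FZD5 were the 2 that fell. The comparison shares its day 0 libraries with that of day 1 and with those of the cardiomyocyte and neural progenitor groups.

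WNT5A was at 14.3, 12.4 and 11.8 TPM against 0.77, 0.90 and 1.17 at day 0 (3.74 ± 0.22, adjusted p = 5.74e-11). WNT4 was at 5, 3.99 and 4.70 against 0.45, 0.15 and 0.21 TPM (4.01 ± 0.49, adjusted p = 2.82e-06), and WNT11 at 2.03, 1.78 and 2.79 against 0.13 (3.91 ± 0.62, adjusted p = 3.54e-05). WNT3A was at 2.57, 2.28 and 1.73 TPM (2.38 ± 0.53, adjusted p = 0.0011), WNT3 at 1.93, 1.98 and 1.81 (1.25 ± 0.37, adjusted p = 0.0093) and WNT5B at 7.36, 9.42 and 12.1 (1.21 ± 0.31, adjusted p = 0.00311). None of these ligands overlapped with day 0, and the share of all genes with no overlap was not counted. WNT2B fell from 6.49, 4.74 and 6.03 to 0.50, 0.48 and 1.54 TPM (-2.53 ± 0.36, adjusted p = 9.51e-06; -3.27 without day 6 replicate 3).

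Some ligands rarely seen elsewhere were above 1 TPM on average at day 6 alone, namely WNT1, WNT6 and WNT9B. WNT6, a ligand of ectoderm beside the somites in the chick, was at 0 in all day 0 libraries and at least 16.1-fold higher at day 6 (adjusted p = 0.000149, floor of 3 counts over the day 0 libraries). WNT1, a ligand of the dorsal midbrain and neural tube, was at 3.79, 1.3 and 1.3 TPM against 0.10, 0.30 and 0.10 (3.43 ± 0.88, adjusted p = 0.00396, and 4.15 without day 0 replicate 2). WNT1 held 48 counts over the day 6 libraries and 5 over those of day 0, and its reads may be shared with the overlapping WNT10B. WNT9B was at 2.41, 0.87 and 1.3 TPM against 0.00, 0.00 and 0.10 (5.18 ± 1.02, adjusted p = 0.000328). Without day 0 replicate 3 the fitted value was 7.6, which is no bound because the other day 0 libraries were at 0. Of the day 6 libraries replicate 1, the one with the fewest counts (3649335), was the highest in all 3. The same libraries held 28.6 to 40.1 TPM of PAX1, a marker of the somite's sclerotome, and 9.01 to 13.7 of PAX3, a marker of dermomyotome and dorsal neural tube, whose part was not tested.

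FZD10 was at 42.4, 31.4 and 27.8 TPM at day 6 against 3.66, 3.05 and 3.16 at day 0 (3.33 ± 0.25, adjusted p = 1.66e-09). FZD4 was at 45.7, 46.8 and 55.3 against 12.8, 11.2 and 14.4 TPM (1.93 ± 0.19, adjusted p = 8.70e-08). FZD5 fell to 2.70, 3.12 and 3.12 TPM (-3.95 ± 0.30, adjusted p = 1.99e-09), while FZD6 was not called, at 30.4, 34.7 and 29.9 against 20.1 to 25.6 TPM (0.46 ± 0.21, adjusted p = 0.0768). FZD6 was called with the replicate number as a block (adjusted p = 0.0267), by DESeq2 (adjusted p = 0.0455) and with only the groups compared in the fit (adjusted p = 0.00793). Day 6 thus had FZD6 high and FZD5 low. FZD1 (5.68 to 7.54 TPM, 1.21 ± 0.23) and FZD7 (48.1 to 65.0 TPM, 0.67 ± 0.16) were higher than at day 0 with adjusted p-values of 0.000268 and 0.00161. FZD3 overlapped (13.5 to 16.8 TPM, 0.35 ± 0.12, adjusted p = 0.0263) and was lost without day 0 replicate 1 or day 6 replicate 3 (highest adjusted p = 0.072). FZD2 was not called, at 35.3 to 36.8 TPM (0.09 ± 0.19, adjusted p = 0.716).

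SFRP2 was at 40.8, 29.7 and 31.5 TPM against 20.03 to 22.7 (0.61 ± 0.22, adjusted p = 0.0263), and SFRP5 at 18.7, 15.04 and 14.9 against 6.08 to 9.26 (1.09 ± 0.41, adjusted p = 0.0341). SFRP5 had its highest group mean of the series here. Both were above every day 0 library, yet the call of SFRP2 was lost without day 0 replicate 1 or 2 or day 6 replicate 1 (highest adjusted p = 0.0759) and that of SFRP5 without day 0 replicate 2 or 3 or any day 6 library (highest adjusted p = 0.105). SFRP1 was at 238, 154 and 163 TPM and not called (0.37 ± 0.18, adjusted p = 0.1), but it was with only the groups compared in the fit (0.40, adjusted p = 0.0141). With all 21 clone 8 libraries in the fit 11 genes were called, and WNT3, WNT3A, WNT5B, FZD3, FZD7, SFRP2 and SFRP5 were not (adjusted p = 0.058 for WNT3 to 0.739 for SFRP2).

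The libraries labelled cardiomyocyte were compared with day 0. FZD1 and WNT5A rose and FZD5 and WNT2B fell whether or not the doubted libraries were used, while WNT7A, WNT7B, SFRP2, FZD6 and FZD7 depended on them. As labelled, 7 of 30 genes tested were higher and 4 lower (36.7%), against 41.7% of all genes (22.9% higher and 18.8% lower). Without cardiomyocyte replicate 2 and neural progenitor replicate 1, 9 were higher and 11 lower (66.7%), against 61.7% of all genes (30.3% higher and 31.4% lower). The median log2 difference over all genes was 0.20 as labelled and -0.04 without both libraries.

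FZD1 was at 54.3, 39.0 and 37.0 TPM in cardiomyocyte replicates 1, 2 and 3 against 3.84, 2.36 and 2.55 at day 0 (4.14 ± 0.32, adjusted p = 6.74e-08; 4.36 ± 0.22, adjusted p = 1.60e-13, without both). WNT5A was at 11.8, 5.73 and 13.1 TPM (3.73 ± 0.57, adjusted p = 7.11e-05; 4.12 ± 0.23, adjusted p = 8.47e-13, without both) and WNT5B at 36.4, 14.2 and 27.7 (2.94 ± 0.52, adjusted p = 0.000278; 3.33 ± 0.31, adjusted p = 3.99e-09, without both). In these 3 genes all cardiomyocyte libraries lay above day 0, with replicate 2 lowest for the ligands. FZD5 fell to 1.39, 1.31 and 1.85 TPM (-4.65 ± 0.57, adjusted p = 8.38e-06; -4.39 ± 0.38, adjusted p = 1.19e-09, without both). WNT2B fell to 0.11, 0.00 and 0.44 TPM (-4.50 ± 0.89, adjusted p = 0.000743; -3.92 ± 0.56, adjusted p = 2.24e-06, without both), and the difference was -6.44 without cardiomyocyte replicate 3. WNT8A was at 0 in all 3 libraries, at least 24.5-fold below its 1.13 to 1.56 TPM at day 0 (adjusted p = 0.000295), and at least 17.5-fold without both (adjusted p = 6.46e-05), with the floor at 3 counts over the group. SFRP5 was at 1.56, 0.00 and 0.00 TPM against 6.08 to 9.26 (-3.54 ± 0.98, adjusted p = 0.00827, as labelled, and -3.02 ± 0.82, adjusted p = 0.00283, without both). It was not called with only the groups compared in the fit (adjusted p = 0.0647). Without cardiomyocyte replicate 1 the fitted value was -7.74, which is no bound because the other cardiomyocyte libraries were at 0.

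WNT11, which promotes heart development in frog and chick, was at 9.41, 0.94 and 9.02 TPM, with replicate 2 low, against 0.13 at day 0 (5.83 ± 1.31, adjusted p = 0.00201; 6.36 ± 0.56, adjusted p = 1.58e-09, without both). FZD3 was at 17.4, 29.1 and 16.4 TPM with replicate 2 high (0.95 ± 0.27, adjusted p = 0.00924; 0.61 ± 0.13, adjusted p = 0.000416, without both; adjusted p = 0.055 without cardiomyocyte replicate 2 alone and 0.0507 with only the groups compared). WNT7A was at 0.00, 28.2 and 0.00 TPM and WNT7B at 0.00, 67.9 and 0.06, so that replicate 2 alone carried the calls of these ligands (6.53 ± 2.30, adjusted p = 0.0311, and 5.41 ± 1.96, adjusted p = 0.0354). Without both libraries the values turned to -2.83 ± 2.75 (adjusted p = 0.385) for WNT7A and -2.92 ± 1.17 (adjusted p = 0.0352) for WNT7B. WNT7A was then at 0 in the cardiomyocyte libraries left, so its fitted value is no bound. Leaving out any single day 0 library also lost both calls, with adjusted p-values up to 0.113.

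Other genes differed once both libraries were left out. FZD6 was at 45.7, 2.45 and 39.5 TPM in replicates 1, 2 and 3 (0.75 ± 0.93, adjusted p = 0.54, as labelled; 1.31 ± 0.22, adjusted p = 2.70e-05, without both). FZD7 was at 5.03, 63.8 and 1.83 TPM (-0.62 ± 0.81, adjusted p = 0.562, as labelled; -2.94 ± 0.27, adjusted p = 2.46e-09, without both), FZD2 at 12.46, 33.1 and 6.84 (-0.90 ± 0.39, adjusted p = 0.0782; -1.43 ± 0.26, adjusted p = 5.73e-05) and FZD10 at 0.92, 4.83 and 0.40 (-0.73 ± 0.81, adjusted p = 0.488, as labelled; -1.97 ± 0.46, adjusted p = 0.000812, without both). SFRP2 was at 1.97, 81.2 and 0.49 TPM, and its 0.18 ± 1.11 (adjusted p = 0.91) as labelled became -3.85 ± 0.38 (adjusted p = 9.23e-09). Replicate 2 stood opposite to replicates 1 and 3 relative to day 0 in FZD6, FZD7 and SFRP2. SFRP1 was at 195, 66.5 and 132 TPM (0.22 ± 0.43, adjusted p = 0.709, as labelled; 0.62 ± 0.20, adjusted p = 0.00939, without both) and FZD8 at 14.4, 7.53 and 7.23 (0.96 ± 0.60, adjusted p = 0.21; 1.24 ± 0.41, adjusted p = 0.0114). WNT2, at the levels given above, was called only without both (3.00 ± 1.43, adjusted p = 0.109, as labelled; 3.54 ± 0.73, adjusted p = 0.000383). FZD4 was at 9.96, 1.46 and 5.64 TPM and called in neither fit (-0.82 ± 0.55, adjusted p = 0.24; -0.33 ± 0.25, adjusted p = 0.253).

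The libraries labelled neural progenitor were compared with day 0 in the same way. As labelled, 7 of 30 genes were higher and 4 lower (36.7%), against 42.7% of all genes (23.8% higher and 19% lower). Without both doubted libraries 11 were higher and 8 lower (63.3%), against 63.8% of all genes (32% higher and 31.8% lower). The median over all genes was 0.20 as labelled and 0.00 without both.

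WNT7B, a ligand of the developing forebrain, was at 0.00, 86.3 and 62.9 TPM in neural progenitor replicates 1, 2 and 3 against 0.26, 0.46 and 0.66 at day 0 (6.37 ± 2.03, adjusted p = 0.0187; 6.96 ± 0.45, adjusted p = 7.81e-12, without both). WNT7A was at 0.00, 46.6 and 22.5 TPM against 0.00, 0.15 and 0.08 (7.63 ± 2.36, adjusted p = 0.0157; 8.25 ± 0.83, adjusted p = 1.59e-08, without both). Replicate 1 was at 0 for both ligands. As labelled, the call of WNT7B was lost without any single day 0 library and that of WNT7A without day 0 replicate 1 or 3 (highest adjusted p = 0.0709), and WNT7A was 6.52 and WNT7B 5.65 without neural progenitor replicate 2. WNT8B, a ligand of the medial forebrain, reached 0.09, 2.18 and 3.36 TPM and was called only without both (2.37 ± 1.4, adjusted p = 0.185, as labelled; 2.94 ± 1.01, adjusted p = 0.0149), and likewise WNT3A at 0.00, 2.48 and 2.50 (1.52 ± 1.21, adjusted p = 0.324; 2.17 ± 0.65, adjusted p = 0.00593).

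WNT5A was at 14.9, 5.43 and 4.03 TPM (3.22 ± 0.56, adjusted p = 0.000244; 2.04 ± 0.26, adjusted p = 5.27e-07, without both; 1.96 without neural progenitor replicate 1 alone) and WNT5B at 29.2, 24.4 and 18.9 (2.50 ± 0.51, adjusted p = 0.001; 2.01 ± 0.33, adjusted p = 1.33e-05, without both). Both ligands were highest in replicate 1 and above day 0 in every library. WNT11 was at 6.67, 0.19 and 0.00 TPM, so its call as labelled (4.40 ± 1.29, adjusted p = 0.0117) rested on replicate 1, and without both the value was -0.18 ± 1.32 (adjusted p = 0.929). WNT2B fell to 0.71, 0.06 and 0.00 TPM (-3.53 ± 0.83, adjusted p = 0.00278; -6.36 ± 0.81, adjusted p = 3.74e-07, without both). WNT8A was again at 0 in all 3 libraries, at least 23.8-fold below day 0 (adjusted p = 0.00034), and at least 12.9-fold without both (adjusted p = 0.000115).

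FZD1 was at 49.2, 52.5 and 46.0 TPM (3.99 ± 0.32, adjusted p = 1.01e-07; 3.70 ± 0.22, adjusted p = 1.99e-12, without both), so all 6 libraries of the cardiomyocyte and neural progenitor groups held it at 37.0 TPM or more. FZD5 was at 0.93, 1.04 and 1.76 TPM (-5.41 ± 0.60, adjusted p = 3.08e-06; -5.59 ± 0.44, adjusted p = 2.29e-10, without both). FZD3 was at 15.5, 42.3 and 42.0 TPM (1.49 ± 0.27, adjusted p = 0.000345; 1.8 ± 0.13, adjusted p = 6.78e-11, without both). FZD1 and FZD5 thus did not depend on the doubted library, and FZD3 was higher in replicates 2 and 3 than at day 0 while replicate 1 overlapped with it.

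FZD6 was at 45.3, 3.90 and 2.54 TPM (-0.08 ± 0.93, adjusted p = 0.953, as labelled; -3.08 ± 0.32, adjusted p = 1.85e-08, without both), and FZD7 at 3.72, 81.0 and 88.5 (0.44 ± 0.81, adjusted p = 0.687; 0.97 ± 0.21, adjusted p = 0.000373). FZD4 was at 8.36, 5.42 and 2.68 TPM (-1.13 ± 0.56, adjusted p = 0.111; -1.88 ± 0.30, adjusted p = 7.99e-06) and FZD8 at 13.8, 13.5 and 14.4 (1.14 ± 0.61, adjusted p = 0.138; 0.84 ± 0.42, adjusted p = 0.0886). FZD2, at 8.02, 50.4 and 35.5 TPM, was not called in either fit (-0.41 ± 0.39, adjusted p = 0.42; 0.00 ± 0.24, adjusted p = 1). SFRP2 was at 1.32, 160 and 142 TPM (1.83 ± 1.14, adjusted p = 0.206, as labelled; 2.41 ± 0.25, adjusted p = 1.41e-08, without both), and SFRP1 at 178, 106 and 105 (-0.10 ± 0.43, adjusted p = 0.875; -0.79 ± 0.21, adjusted p = 0.00202). In FZD6, FZD7 and SFRP2 replicate 1 stood on the other side of day 0 from replicates 2 and 3. SFRP5 fell to 0.21, 0.00 and 0.00 TPM (-5.67 ± 1.21, adjusted p = 0.00132, as labelled, and -5.03 without replicate 2). Without replicate 1 the fitted value was -7.72, which is no bound because replicates 2 and 3 were at 0. SFRP5 was at least 12.3-fold lower without both doubted libraries (adjusted p = 0.000152).

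**Figure D5:**
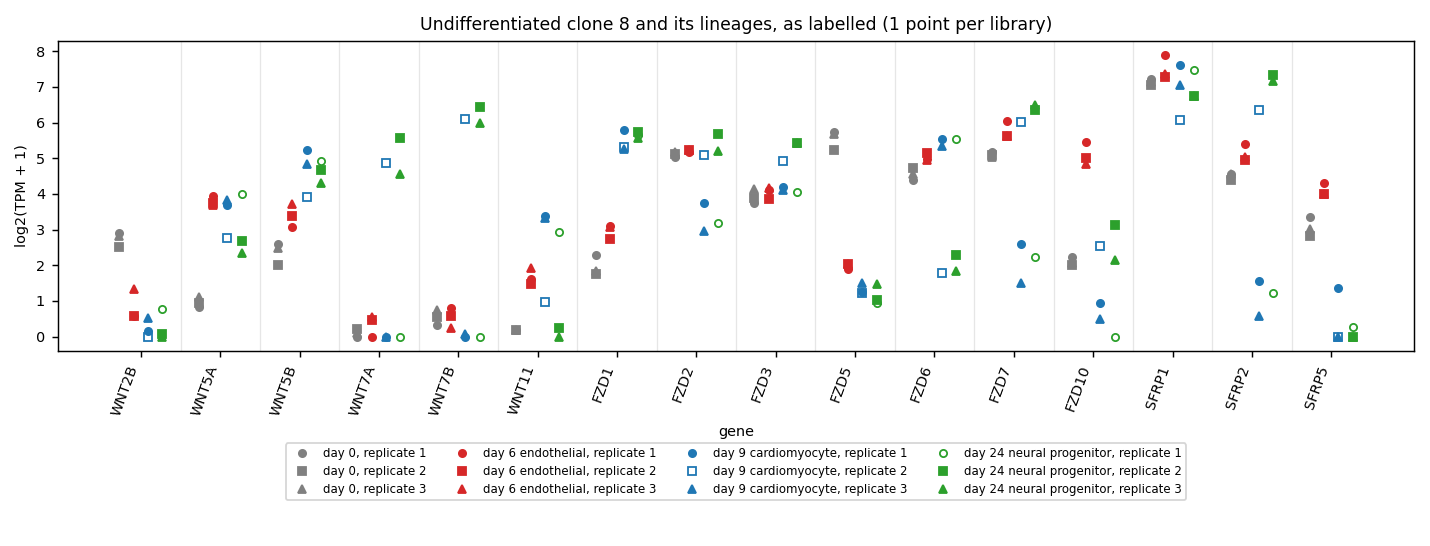
Level of 16 genes as log2(TPM + 1) in the libraries of clone 8 at day 0 and of the endothelial, cardiomyocyte and neural progenitor groups, with 1 symbol per replicate number and open symbols for cardiomyocyte replicate 2 and neural progenitor replicate 1. For WNT7A, WNT7B, FZD6, FZD7 and SFRP2 each open symbol lies with the filled symbols of the other group, while FZD1 is high and FZD5 low in all 6 libraries of these groups.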

How the data were processed

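Per the labels' protocols, a QIAGEN RNeasy Plus kit gave the RNA, and ligation-mediated sequencing the libraries. The submitters' processing notes name RSEM 1.2.3, Bowtie 1.2.3, bcl2fastq and the pig build Sscrofa11.1. The authors deposited expected counts per gene and library, which RSEM estimates from the reads, and TPM, which divides by effective gene length. Use of strand in counting is not given in the sources used here, and overlapping genes may share reads.

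Rounded expected counts entered edgeR 4.0.16 in R 4.3.3 (quasi-likelihood test) after TMM scaling and filterByExpr (minimum count 10). P-values were adjusted by Benjamini-Hochberg over every gene of a comparison, and a gene was called under 0.05. SE is the log2 difference divided by the square root of F. One model held fibroblasts and clones 1 to 3 (15 libraries, 14660 genes), another days 0 to 3 and endothelial cells (15 libraries, 13597 genes). All 21 clone 8 libraries (14248 genes) gave the cardiomyocyte and neural progenitor results, and 19 libraries (14485 genes) those without both doubted libraries. The cardiomyocyte and neural progenitor groups were kept out of the second model because of these libraries. TPM means, SDs and library values describe levels and entered no main test. Overlap between groups was examined for the members and other pathway genes alone, so its share over all genes is not known. For a gene at 0 throughout a group, a bound was taken at 3 counts summed over that group, a matter of counting error alone. The counts of the other side were pooled over its libraries, so the bound and the adjusted p are separate statistics. Where leaving out libraries put a group at 0, the fitted difference is no bound.

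Members, lists and the choice of libraries were made with earlier results of these data known. Named are genes called in a comparison that average at least 1 TPM in one of its groups, and uncalled genes of at least 10 TPM. Genes outside this rule that the text names were chosen after their values were seen. CELSR1 and sequences of the members were not analysed here. Positions come from RefSeq, which matched all 33 genes by symbol. Same-numbered libraries deviated together for day 1 and day 0 (correlations 0.112 to 0.353) and for day 2 and day 1 (0.172 to 0.503), a pairing inferred from the data alone. No 2 libraries of a group were identical. The tests were tried on simulated counts. Alternatives were RLE scaling, no filter, DESeq2 1.42.0, limma 3.58.1 on log2(TPM + 1) and log2(TPM + 0.1), the replicate number as a block, other choices of libraries in the model, fibroblast libraries by depth, and each library left out.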

Additional observations from a re-analysis of the deposited data

Results flagged for a closer look

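In 51 combinations of a gene and a group of 4 libraries, a highest or lowest library was set against the others, a test by which chance alone marks about 1 in 20. WNT11 in fibroblasts stood apart through 1 library at 2.53 TPM, the others being at 0.98, 1.08 and 1.12. FZD3 in clone 3 stood apart through 1 library at 11.46 TPM, the others being at 7.32, 7.46 and 7.83.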

How the results depend on the processing

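Of 152 single-gene results 137 had the same sign under every alternative run, and 15 changed sign under at least 1, of which 3 were called as reported. The side of the threshold and the direction of every called value were kept by 88. The reversals without both doubted libraries were WNT7A (-2.83), WNT7B (-2.92) and SFRP2 (-3.85) at day 9 and WNT11 (-0.18) at day 24. Without cardiomyocyte replicate 2 alone the first 3 were -2.84, -2.93 and -3.82, and without neural progenitor replicate 1 alone WNT11 was -0.26; the highest values with any library left out were 7.29, 5.94, 0.69 and 4.96. RLE scaling, no filter and the block moved no count beyond 1.5 times. Counts of called genes that moved follow, in order of the members and then all genes. For clone 1 against 2 (4, 1365), DESeq2 gave 2247 genes and limma 7 members with either pseudocount. For clone 1 against 3 (2, 982), DESeq2 gave 8 and 1877, limma on log2(TPM + 1) 1 member and only the groups compared 1 member. For clone 2 against 3 (2, 618), DESeq2 gave 1226 genes, limma on log2(TPM + 1) 1052, and only the groups compared 7 and 2561. With all 21 clone 8 libraries in the fit, day 1 gave 9 and 1808 (main 16, 5450), day 2 gave 7 and 1053 (14, 3560), day 3 gave 10 and 3374 (16, 6957) and day 6 gave 11 and 2752 (19, 6486). With only the groups compared, day 2 gave 2165 genes, day 9 gave 6 and 3764 (11, 5940) and day 24 gave 3476 genes (11, 6087). Without both libraries day 9 gave 20 and 8934, and day 24 gave 19 and 9236. The causes were not tested.

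With each library left out, members called ranged from 21 to 23 of 10371 to 11196 genes for clones against fibroblasts, 2 to 6 of 643 to 1757 for clone 1 against 2, 2 to 4 of 435 to 1332 for clone 1 against 3 and 0 to 2 of 330 to 549 for clone 2 against 3. They ranged from 14 to 16 of 4287 to 6499 at day 1, 12 to 14 of 2774 to 3858 at day 2, 13 to 17 of 5996 to 7049 at day 3, 16 to 19 of 5433 to 5902 at day 6, 9 to 13 of 4477 to 6885 at day 9 and 9 to 14 of 4663 to 7519 at day 24. Same-numbered libraries of the other groups deviated together by -0.304 to 0.275. With the replicate number as a block the calls of WNT11 (-2.12, clones against fibroblasts), WNT7A (5.75) and WNT7B (3.95) at day 9 were lost and FZD6 (0.46, day 6) was gained. It changed no other call. For clones against fibroblasts only the groups compared is the model used. Depth limits the ligands below 1 TPM in clone 8.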

Other observations

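Among the other pathway genes, 46 of 54 tested differed between the clones and fibroblasts (18 higher and 28 lower in the clones), against 74.6% of all genes (38.6% higher and 35.9% lower). DKK3, counted here with the antagonists, was at 434, 384, 372 and 375 TPM in fibroblasts and 12.3 to 37.5 in the clones (log2 difference -4.26 ± 0.15, adjusted p = 6.92e-14, edgeR). ROR2, a receptor for WNT5A, was at 50.2 to 68.6 TPM against 7.21 to 20.9 (-2.60 ± 0.12, adjusted p = 2.06e-12), so the receptor and its ligand were both higher in fibroblasts. CER1, an antagonist of Nodal, BMP and Wnt ligands, was at 57.1 to 186 TPM in the clones and at 0.13 or less in fibroblasts (12.96 ± 0.37, adjusted p = 5.69e-15). None of these 3 genes overlapped between fibroblasts and clones.

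In the late lineages RSPO3 was high in all 6 libraries, at 193, 237 and 199 TPM in the cardiomyocyte group and 207, 280 and 227 in the neural progenitor group, against 3.73, 8.77 and 9.81 at day 0. The log2 differences were 5.02 ± 0.33 (adjusted p = 1.57e-08, edgeR) and 4.86 ± 0.33 (adjusted p = 2.30e-08), and 5.13 and 4.71 without both doubted libraries. ROR2 fell from 17.7 to 26.2 TPM to 0.11 to 3.48 in the cardiomyocyte group (-3.04 ± 0.96, adjusted p = 0.018; -2.48 ± 0.36, adjusted p = 3.56e-06, without both) and 0 to 4.90 in the neural progenitor group (-3.11 ± 0.96, adjusted p = 0.0158; -6.98 ± 0.63, adjusted p = 2.13e-09, without both). CELSR2, a planar polarity cadherin, was at 49.7 TPM in cardiomyocyte replicate 2, at 79.3 and 66.5 in neural progenitor replicates 2 and 3, and at 0.67 or less in the other 3 libraries of these groups.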
